A study of Mus musculus with 18 samples.

Results

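Long noncoding RNAs are transcripts that are not translated into protein, and 8 of them were followed here across the conditions and fractions of a glioma study in mice. They are Malat1, Neat1, Meg3, Rian, Mirg, Miat, Snhg11 and Gas5, picked by name as nuclear and imprinted-locus noncoding RNAs with earlier results of these data known, and they are 8 of the 23420 gene symbols counted. All mice carried Camk2a-Cre-Rpl22HA: the Cre recombinase, driven by the Camk2a promoter of forebrain excitatory neurons, switches Rpl22, a protein of the large ribosomal subunit, to a form with an HA tag, so that ribosomes of those neurons can be pulled down. Each group gave total RNA of the brain sample (input) and RNA bound to HA-immunoprecipitated polysomes (IP). The control group had no tumor, the tumor group had glioma cells implanted in the cortex, and the AZD group had such tumors and was treated with AZD8055, an inhibitor of the mTOR kinase. Condition and fraction made 6 groups of 3 libraries, 18 in all. The sources used here give no age, dose or treatment time. The labels do not say that each replicate number is a separate animal, so the spread behind the p-values is that among libraries and may be technical in part.

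Malat1 and Neat1 are neighbouring nuclear RNAs: Malat1 collects in nuclear speckles, where splicing factors are stored, and Neat1 is the scaffold of paraspeckles, nuclear bodies that hold RNA-binding proteins. Meg3, Rian and Mirg are made from the maternal copy of the imprinted Dlk1-Dio3 region, in the same direction and one after another; Rian hosts box C/D small nucleolar RNAs (snoRNAs) and Mirg hosts a cluster of microRNAs. Miat, also known as Gomafu, is a nuclear RNA of neurons that binds splicing factors. Snhg11 and Gas5 are snoRNA hosts; Gas5 carries a terminal oligopyrimidine (TOP) start, is bound by ribosomes and is broken down when translated. mTOR inhibition lowers the translation of TOP RNAs. An RNA that stays in the nucleus has no contact with polysomes, which is the background for setting IP beside input.

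The start regions of Meg3, Gas5, Miat and Snhg11 are shown because Meg3, Miat and Snhg11 had the most alike levels over the libraries and because Gas5 is the TOP RNA of the group. Sequences are from RefSeq (GRCm38.p6), in the direction of the gene, with 250 bases before and 50 bases after the start, and 7 of the 8 genes had an entry. Capitals mark TGACGTCA (the cAMP response element), TATAAA (the TATA box) on either strand, or the part of a pyrimidine run from the annotated start on.
Meg3 (chr12:109540746-109541045, plus strand): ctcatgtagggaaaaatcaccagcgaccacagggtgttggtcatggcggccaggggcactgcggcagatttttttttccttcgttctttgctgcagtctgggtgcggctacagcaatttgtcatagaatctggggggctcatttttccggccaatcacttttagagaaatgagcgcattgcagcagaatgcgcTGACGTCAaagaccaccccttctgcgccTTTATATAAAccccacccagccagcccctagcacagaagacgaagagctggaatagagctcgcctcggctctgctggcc
Gas5 second start (chr1:161034916-161035215, plus strand): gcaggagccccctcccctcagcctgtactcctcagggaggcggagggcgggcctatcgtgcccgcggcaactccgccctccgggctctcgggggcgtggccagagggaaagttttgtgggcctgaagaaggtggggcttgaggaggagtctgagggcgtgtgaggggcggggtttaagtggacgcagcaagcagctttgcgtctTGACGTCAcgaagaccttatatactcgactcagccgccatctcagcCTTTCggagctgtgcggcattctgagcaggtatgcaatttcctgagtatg
Miat (chr5:112228899-112229198, minus strand): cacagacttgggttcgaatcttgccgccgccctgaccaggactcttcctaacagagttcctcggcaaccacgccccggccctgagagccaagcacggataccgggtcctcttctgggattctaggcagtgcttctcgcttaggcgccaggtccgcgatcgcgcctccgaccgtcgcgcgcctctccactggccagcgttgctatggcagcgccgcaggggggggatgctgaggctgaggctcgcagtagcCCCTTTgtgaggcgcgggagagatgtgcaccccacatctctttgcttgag
Snhg11 (chr2:158375463-158375762, plus strand): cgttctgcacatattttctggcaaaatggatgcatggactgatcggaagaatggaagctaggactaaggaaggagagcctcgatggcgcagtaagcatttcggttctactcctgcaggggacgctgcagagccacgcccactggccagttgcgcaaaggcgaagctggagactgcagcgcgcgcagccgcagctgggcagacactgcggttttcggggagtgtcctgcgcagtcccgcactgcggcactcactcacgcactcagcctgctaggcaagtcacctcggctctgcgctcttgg

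In the Meg3 window the first base of TGACGTCA lies at -57 and that of TATAAA at -25, counted from the start, with a TATAAA on the other strand at -29 that overlaps it. The second Gas5 start has TGACGTCA at -46 and the pyrimidine run CCTTTC from -1, and the Miat start has the run CCCCTTT from -1. Both runs thus begin 1 base before the annotated start, and only CTTTC and CCCTTT are in capitals. TGACGTCA was found in 1.79% of the 32851 promoter windows of the same length, TATAAA in 13.6%, and a TOP form (a C followed by at least 4 pyrimidines within 10 bases of the start) in 30.7%, all searched on both strands except the TOP form. The Meg3 window shown also held a TOP form, CCCCT from -5, which ends before the annotated start and is not in capitals. The Rian window, not shown, held CCCCTC from 7. GGGCGG, found in 35.7% of windows, was present in the Gas5 and Miat windows shown, and CACGTG, found in 7.15%, was in none of the windows of these genes. The Snhg11 window held none of the motifs searched, which says only that these letters are not in this stretch.

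Mirg is shown through its microRNAs, since it is known as their host. RefSeq places 19 mature microRNAs from 10 genes inside it, with 18 different seeds (bases 2 to 8, in capitals). Only miR-453 and miR-496a-5p share a seed. The mature microRNAs themselves were not measured in these libraries.
miR-453: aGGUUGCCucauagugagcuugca
miR-496a-5p: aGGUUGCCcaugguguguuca
miR-154-5p: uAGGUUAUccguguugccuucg
miR-377-3p: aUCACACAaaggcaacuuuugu
miR-410-3p: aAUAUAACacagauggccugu

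In GRCm38, Malat1 lies on chr19:5795690-5802672 (minus strand) and Neat1 beside it on chr19:5824708-5845480. Meg3 lies on chr12:109540996-109571729, Rian on chr12:109603945-109661716 and Mirg on chr12:109734981-109749458, all on the plus strand. Miat lies on chr5:112213228-112228948 (minus strand), Snhg11 on chr2:158375713-158386474 (plus strand) and Gas5 on chr1:161034601-161038539 (plus strand). RefSeq annotates all of them as lncRNA. The span of Rian holds 11 snoRNA genes, that of Gas5 holds 8 and that of Snhg11 holds 2. Meg3 shares 6830 bases with the protein-coding gene Rtl1, which runs against it, and Gas5 shares 264 bases with Zbtb37. Whether counting used strand is not given, so reads in those stretches may be split between the genes.

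Library totals lay between 13561511 and 34178417 counts. Levels are counts per 1000000 counts of the library (CPM), scaled by TMM over the 18 libraries, and they are compared between libraries for 1 gene at a time, not between genes. The library names fall into 3 sets: control and tumor input (PD013), control and tumor IP (PD015) and all AZD libraries (PD028). Comparing tumor with control in the same fraction, or the fractions of AZD mice, therefore stays within a set, while IP against input in control and tumor mice, and AZD against the other conditions, cannot be told apart from the library set. The 8 RNAs together took 1.40% to 2.64% of the counts in input libraries and 0.314% to 1.09% in IP libraries. Control IP replicate 1 stood apart, with 0.388% against 1.09% and 0.828% in the other control IP libraries, although its summed excitatory neuron markers were the highest of the 3 (5742 CPM against 5018 and 5116). Slc17a7 (excitatory neurons), Gad1 (inhibitory neurons), Aqp4 (astrocytes), Mbp (oligodendrocytes) and Pdgfra (glioma lineage) had counts in every library, IP included.

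**Figure D1:**
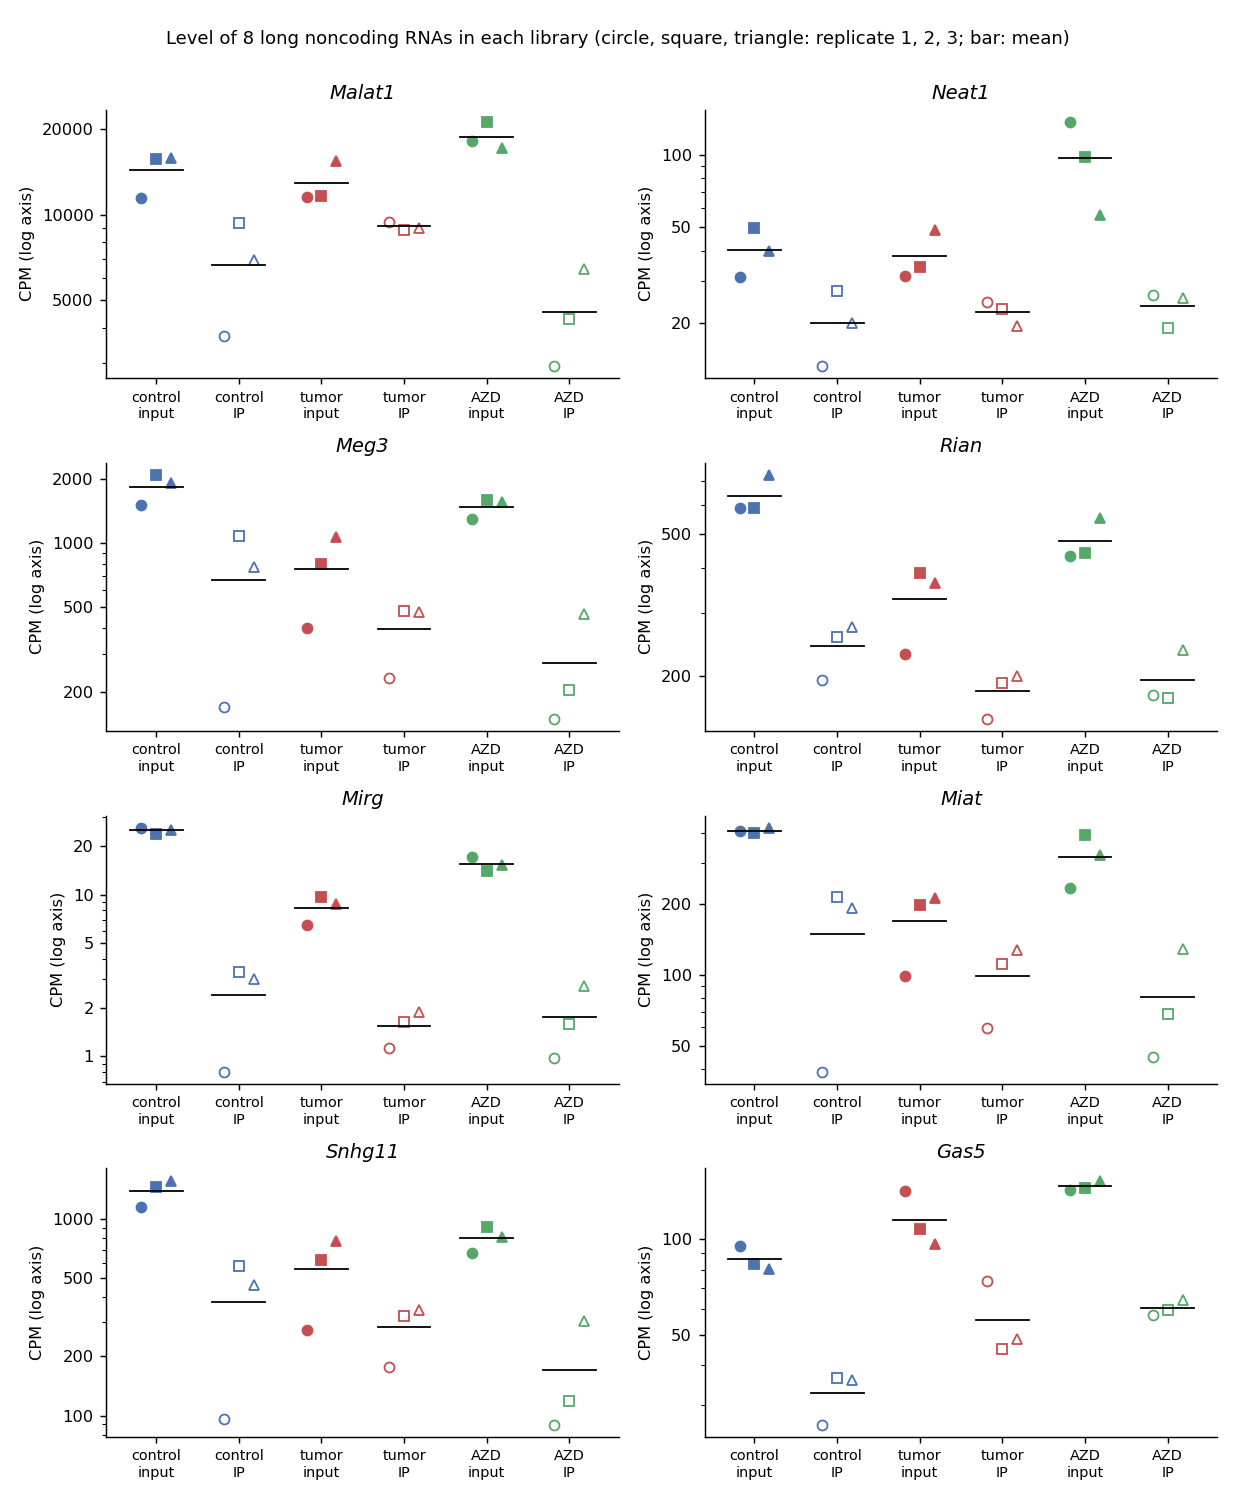
Level of each RNA in CPM (log axis) in the 6 groups of condition and fraction; filled symbols are input, open symbols IP, and circle, square and triangle are replicates 1, 2 and 3, with the group mean as a bar. The input mean lies above the IP mean within every condition, and the means of Meg3, Rian, Mirg, Miat and Snhg11 are lower in tumor input than in control input.

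All 8 RNAs were lower in polysome-bound RNA than in total RNA. For each RNA, every numbered IP library was below the input library of the same number. These are 72 values, but the 8 RNAs share the same library pairs, so the values are not independent. In control and tumor mice the paired fractions lie in different library sets. The share of all genes with IP below input in every pair was not taken. In control mice all 8 fell (edgeR quasi-likelihood test, Benjamini-Hochberg adjusted p between 5.12e-06 and 0.0187), from a log2 fold of -1.03 for Neat1 to -3.44 for Mirg, where 18.8% of the 14958 genes tested were called lower and 36.5% were called in either direction. In AZD mice all 8 fell too, from -1.25 for Gas5 to -3.03 for Mirg, where 32.5% of 15040 genes were called lower and 61.5% in all. In tumor mice only Mirg passed the unpaired test (-2.40 ± 0.26 SE, adjusted p 0.00555), where 2.98% of 15245 genes were called lower and 5.09% in all. With the replicate number as a block, which pairs each IP with its input, all 8 fell in tumor mice as well (adjusted p between 8.48e-11 and 0.000372), but then 18.1% of genes were called lower and 35.6% in all. The median log2 fold of the 8 was -1.44 in control, -0.89 in tumor and -2.02 in AZD mice, beside -0.02 over all genes tested in each condition.

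Malat1 was at 11470, 15730 and 15870 CPM in the control inputs (replicates 1 to 3) and at 3734, 9363 and 6936 CPM in control IP. The groups did not overlap, as was the case for 24.1% of genes with IP below input, and IP held 45.3% ± 13.5 of the input level (SD, n = 3 pairs). Its log2 fold was -1.12 ± 0.25 (adjusted p 0.00406). In tumor mice Malat1 was at 11530, 11670 and 15450 CPM in input and at 9422, 8868 and 8991 CPM in IP, so IP held 72% ± 12.3 of input and the libraries again did not overlap (15.4% of genes). In AZD mice it was at 18110, 21220 and 17180 CPM in input and at 2943, 4312 and 6422 CPM in IP, which is 24.6% ± 11.2 of input. Every AZD IP library was below every tumor IP library (34.7% of genes), and every AZD input library was above every tumor input library (15% of genes) and every control input library (28.7%).

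Neat1 was at 31.3, 49.7 and 40.1 CPM in the control inputs and at 13.4, 27.2 and 20.0 CPM in control IP, a log2 fold of -1.03 ± 0.21 (adjusted p 0.00273). In tumor mice it was at 31.3, 34.1 and 49.0 CPM in input and at 24.5, 22.9 and 19.6 CPM in IP. With AZD, input was at 137.1, 97.7 and 56.1 CPM and IP at 26.2, 19.1 and 25.5 CPM, a log2 fold of -2.02 ± 0.29 (adjusted p 0.000525). The IP libraries of all conditions lay in a narrow band of 13.4 to 27.2 CPM, below every input library, and the wide input range of 31.3 to 137.1 CPM came from the AZD group. Malat1, Mirg and Gas5 also had every IP library below every input library. The share of all genes with such a separation was not taken.

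Meg3 was at 1504, 2090 and 1904 CPM in the control inputs and at 170.5, 1074 and 771.3 CPM in control IP. Replicate 1 of the IP was well below the others, and IP held 34.4% ± 20.7 of input. The log2 fold was -1.46 ± 0.43 (adjusted p 0.0187); without control IP replicate 1 it was -1.0 (adjusted p 0.00037), and the call was lost without control input replicate 2 (adjusted p 0.0556) or 3 (0.0612). In AZD mice Meg3 was at 1299, 1584 and 1552 CPM in input and at 149.6, 204.0 and 465.4 CPM in IP, a log2 fold of -2.41 ± 0.37 (adjusted p 0.000738), and of -3.02 without AZD IP replicate 3. In tumor mice input was at 400.5, 796.7 and 1070 CPM and IP at 231.9, 479.0 and 473.7 CPM. These overlapped because replicate 1 was low in both fractions, and within pairs IP held 54.1% ± 8.6 of input.

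Rian, the next gene along the same strand, was at 591.0, 588.3 and 730.9 CPM in the control inputs and at 195.2, 257.0 and 273.2 CPM in control IP. Its log2 fold of -1.41 ± 0.13 (adjusted p 8.26e-06) had a smaller error than that of Meg3, and replicate 1 of the IP was closer to the others. Tumor input was at 230.7, 389.0 and 364.2 CPM and tumor IP at 151.8, 191.6 and 199.9 CPM. AZD input was at 433.8, 442.7 and 553.9 CPM and AZD IP at 176.8, 173.1 and 236.1 CPM, a log2 fold of -1.26 ± 0.15 (adjusted p 0.000227). IP held 40.8% ± 1.8 of input in AZD mice and 38.0% ± 5.4 in control mice.

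Mirg had the largest difference between IP and input of the 8 RNAs in every condition. It was at 25.9, 23.7 and 25.1 CPM in the control inputs and at 0.807, 3.34 and 3.01 CPM in control IP, so that IP held 9.7% ± 5.8 of input. The log2 fold was -3.44 ± 0.30 (adjusted p 5.12e-06), at the 0.321 percentile of the genes tested. In tumor mice input was at 6.45, 9.69 and 8.78 CPM and IP at 1.12, 1.63 and 1.88 CPM. In AZD mice input was at 17, 14 and 15.2 CPM and IP at 0.982, 1.59 and 2.72 CPM, a log2 fold of -3.03 ± 0.30 (adjusted p 0.000109). The IP values rest on few reads, from 12 counts in AZD IP replicate 1 to 83 in control IP replicate 3.

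Miat was at 408.2, 398.9 and 421.9 CPM in the control inputs, where its replicates were the closest of the 8 relative to their mean, and at 38.9, 215.2 and 192.2 CPM in control IP. The log2 fold was -1.48 ± 0.41 (adjusted p 0.013), and -1.02 (adjusted p 5.07e-06) without control IP replicate 1. Tumor input was at 98.7, 198.1 and 212.4 CPM and tumor IP at 59.5, 111.0 and 127.8 CPM; the groups overlapped, but IP held 58.8% ± 2.4 of input within pairs. AZD input was at 233.3, 393.4 and 324.5 CPM and AZD IP at 44.8, 68.4 and 129.2 CPM, a log2 fold of -1.94 ± 0.35 (adjusted p 0.00168). DESeq2 did not call Meg3 (adjusted p 0.0995) or Miat (0.078) in control mice and called the other 6.

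Snhg11, a neuronal snoRNA host, was at 1151, 1456 and 1577 CPM in the control inputs and at 96.2, 581.2 and 462.0 CPM in control IP, a log2 fold of -1.89 ± 0.43 (adjusted p 0.00465). Without control IP replicate 1 it was -1.43 (adjusted p 9.84e-06). Tumor input was at 273.2, 620.2 and 778.7 CPM and tumor IP at 176.9, 322.2 and 347.3 CPM, and the groups overlapped through replicate 1. AZD input was at 676.2, 917.5 and 816.3 CPM and AZD IP at 89.9, 118.5 and 302.3 CPM, a log2 fold of -2.21 ± 0.40 (adjusted p 0.0017), and of -2.90 without AZD IP replicate 3. In AZD IP, replicate 3 was the highest library for Snhg11, Meg3, Miat, Malat1, Rian, Mirg and Gas5, but not for Neat1.

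Gas5 was at 95.1, 83.3 and 80.2 CPM in the control inputs and at 26.1, 36.4 and 35.9 CPM in control IP, a log2 fold of -1.41 ± 0.12 (adjusted p 5.33e-06). Tumor input was at 141.1, 107.1 and 96.2 CPM and tumor IP at 73.6, 45.0 and 48.4 CPM. AZD input was at 142.3, 144.8 and 152.2 CPM and AZD IP at 57.8, 59.6 and 64.2 CPM, a log2 fold of -1.25 ± 0.09 (adjusted p 3.21e-05). IP held 38.6% ± 9.7 of input in control, 48.2% ± 5.4 in tumor and 41.3% ± 0.8 in AZD mice, so the value under AZD lay between those of the other conditions. Snord47, the snoRNA inside Gas5 with a row in the table, fell further than its host (log2 fold -3.69 ± 0.47 in control, -2.71 ± 0.46 in tumor and -3.90 ± 0.31 in AZD mice; adjusted p 0.000104, 0.0231 and 4.64e-05).

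**Figure D2:**
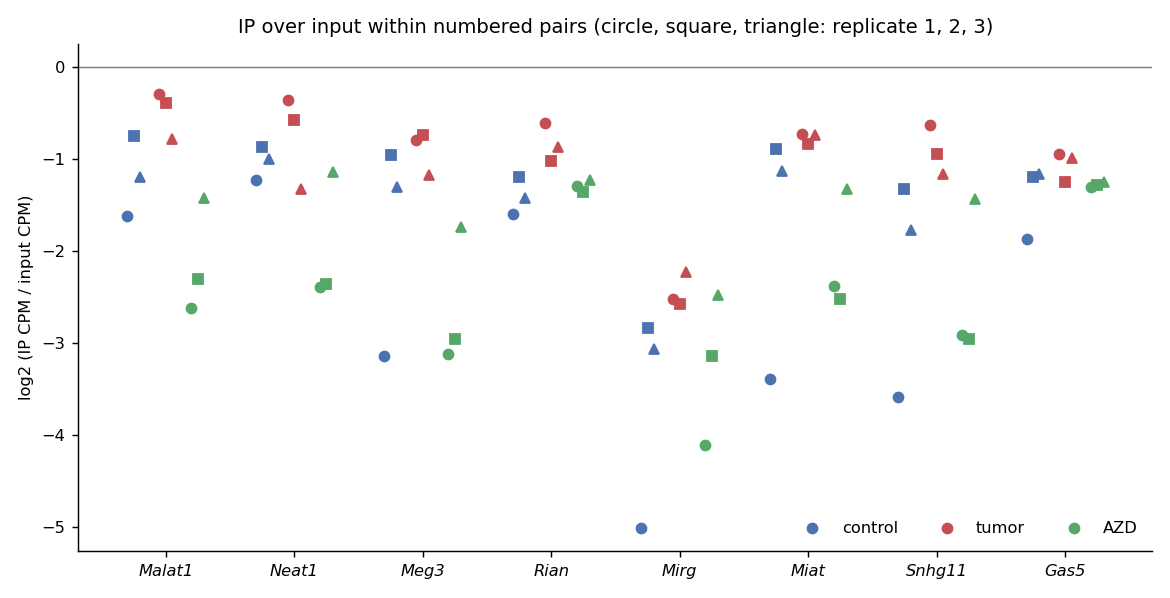
log2 of the IP level over the input level of the same replicate number for each RNA; colours are conditions and circle, square and triangle are replicates 1, 2 and 3. All 72 points lie below 0, Mirg is the lowest of the 8 in each numbered pair, and control replicate 1 lies below the other control pairs for each RNA.

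Other noncoding RNAs and nuclear RNAs were set beside the 8. Of 15 other long noncoding RNAs tested in control mice, 8 fell and 1 rose in IP (median log2 fold -0.65), among them the microRNA host Mir17hg (-2.36) and Dancr (-2.01). In AZD mice 11 of 18 fell and 2 rose (median -1.04), with Sox2ot at -1.83 and Pvt1 at -1.12. Of the 11 RNAs tested on the list of noncoding snoRNA hosts, 8 fell and 0 rose in control mice (median -0.94), including Snhg6 (-1.10) and Snhg5 (-1.19). That list also holds Rpph1, the RNA of RNase P (-1.54), and Nop56, which encodes a protein (-0.64). In AZD mice 8 of the 11 fell (median -0.89), including Snhg5 (-1.81) and Snhg8 (-1.07), and in tumor mice 0 passed (median -0.70).

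Coding genes of nuclear bodies were split. Of 32 genes for speckle and splicing proteins, 17 fell and 3 rose in control IP (median -0.26), among them the cyclin Ccnl2 (-1.49) and the kinases Clk4 (-1.13) and Clk2 (-0.89), which phosphorylate splicing factors. In AZD mice 19 fell and 1 rose (median -0.39), including Ccnl2 (-1.48), Clk4 (-1.23) and Luc7l3 (-1.18). Of 20 genes for paraspeckle proteins, 7 rose and 3 fell in control IP: Matr3 rose by 0.66 on the log2 scale, whereas Hnrnph3 fell by 2.50. The coding neighbours of Meg3 in the Dlk1-Dio3 region did not follow it in control IP, with 1 of 11 lower (Dync1h1, -0.95) and 2 higher (Yy1, 0.35, and Rtl1, 2.08). There 18.8% of all genes were called lower and 36.5% in all. In AZD IP 2 of 11 were lower and 2 higher, where 32.5% of all genes were called lower and 61.5% in all. Rtl1 was among the lower ones (-2.42, beside -2.41 for Meg3). Of 43 cytosolic ribosomal protein genes, which are TOP genes, 17 fell in control IP (median -0.19) and 27 in AZD IP (median -0.40). Excitatory neuron markers moved the other way: 7 of 14 rose in control IP (median 0.25) and 13 of 14 in AZD IP (median 1.35). All 10 astrocyte markers fell in AZD IP (median -2.20), their sum being 5154 to 6281 CPM in input and 1806 to 2365 CPM in IP. In control IP 0 of the 10 astrocyte markers fell and 2 rose (median -0.04). Their sum was 7431 to 8653 CPM in control input and 7274 to 7793 CPM in control IP. In tumor IP 0 of the 14 excitatory neuron and 0 of the 10 astrocyte markers passed (medians 0.35 and -0.03). Glioma lineage markers summed to 6040 to 6805 CPM in tumor input and 4832 to 5255 CPM in tumor IP, with 3 of 10 called lower. The part of the change in cell mixture in the 8 RNAs' difference was not tested.

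In total RNA of tumor-bearing brain, 5 of the 8 RNAs were lower than in control brain and Gas5 was higher. Meg3, Rian, Mirg, Miat and Snhg11 fell by 0.97 to 1.60 on the log2 scale, while Malat1 and Neat1 did not pass the test. Among all 15511 genes, 48.1% were called: 23.6% lower and 24.5% higher. In polysome-bound RNA only Gas5 passed, higher in tumor mice, where 47.0% of 15734 genes were called and 26.1% were called higher.

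Mirg fell in tumor input by 1.60 ± 0.16 (adjusted p 4.56e-05), with no library of either group in the other's range, as for 29.8% of genes with tumor below control. Meg3 fell by 1.29 ± 0.28 (adjusted p 0.004), Rian by 0.97 ± 0.19 (0.00231), Miat by 1.29 ± 0.26 (0.00266) and Snhg11 by 1.34 ± 0.30 (0.00471). The lowest control library was above the highest tumor library for each of these 5. Tumor input replicate 1 was the lowest of its group for all 5, and without it all 5 were still called. In bulk RNA, fewer cells of a type and less RNA per cell cannot be told apart. The 14 excitatory neuron markers summed to 4389 to 4525 CPM in control input and 1427 to 2850 CPM in tumor input, all 14 fell (median log2 fold -0.95), and the 10 glioma lineage markers rose from sums of 541.8 to 615.0 CPM to 6040 to 6805 CPM. Their part in the lower levels of the 5 RNAs was not tested.

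Malat1 differed by -0.17 ± 0.19 (adjusted p 0.468) and Neat1 by -0.10 ± 0.29 (adjusted p 0.798) between tumor and control input, less than their standard errors in both cases. Of the protein genes around them on chromosome 19, 3 of 9 tested rose and 2 fell, among them Frmd8 at 1.86 and Cdc42ep2 at -1.08. In the Dlk1-Dio3 region Dlk1, which encodes a Notch-family ligand made from the paternal copy, fell by 1.61 ± 0.36 in input (adjusted p 0.00454) and fell by 1.94 ± 0.30 in IP (adjusted p 0.000473). Begain, a synaptic protein gene at its edge, fell by 1.03 in input and 0.97 in IP, and Dio3, the deiodinase that inactivates thyroid hormone, fell by 1.86 ± 0.41 in IP (adjusted p 0.00377) and differed by -1.73 in input without passing (0.0605). Rtl1 did not pass in either fraction. The paternal genes Dlk1 and Dio3 and the maternal RNAs Meg3, Rian and Mirg thus had lower means in tumor than in control, with the maternal RNAs called in input alone; the difference between fractions did not pass for any of them.

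In IP the tumor against control differences were -0.74 ± 0.58 for Meg3, -0.39 ± 0.16 for Rian, -0.57 ± 0.50 for Mirg, -0.55 ± 0.55 for Miat and -0.40 ± 0.59 for Snhg11, with adjusted p from 0.0719 (Rian) to 0.6 (Snhg11). Without control IP replicate 1, the low library, Rian was called lower (-0.53, adjusted p 0.028) and the other 4 were not. RLE scaling, upper quartile scaling and DESeq2 also called Rian lower (adjusted p 0.0418, 0.0352 and 0.0224).

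Gas5 rose in tumor IP by 0.79 ± 0.19 (adjusted p 0.00581), from 26.1 to 36.4 CPM in control to 45.0 to 73.6 CPM in tumor, with no overlap (30.6% of genes with tumor above control). In input it rose by 0.40 ± 0.14 (adjusted p 0.0394). That call was lost without tumor input replicate 1 (0.22, adjusted p 0.126), control input replicate 2 (0.111) or control input replicate 3 (0.125), with upper quartile scaling (0.0698) and in a single fit of all libraries (0.055). Of the 11 RNAs tested on the list of snoRNA hosts, which also holds Rpph1 and Nop56, 5 rose in IP (median 0.71). These included Snhg1 (1.23), Snhg6 (1.30) and Snhg5 (1.17). In input 4 of the 11 rose (median 0.47). Ribosomal protein genes rose in 41 of 43 cases in IP (median 0.76) and in 32 of 43 in input (median 0.57). Of the other long noncoding RNAs, 5 of 18 rose and 3 fell in IP, with Mir17hg at 2.50 and Pvt1 at 1.33.

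Total RNA of AZD-treated tumor brain had more of 4 of the RNAs than that of untreated tumor brain, and less Malat1 was bound to polysomes. Neat1 rose in input by 1.38 ± 0.29 (adjusted p 0.0106), Meg3 by 1.00 ± 0.28 (0.0341), Mirg by 0.92 ± 0.16 (0.00462) and Miat by 0.93 ± 0.26 (0.0313), where 7.89% of the 15511 genes were called higher and 17.1% in all. Malat1 (0.58 ± 0.19, adjusted p 0.0563) and Rian (0.57 ± 0.19, 0.06) did not pass, nor did Snhg11 (0.56 ± 0.30, 0.219) and Gas5 (0.38 ± 0.14, 0.0947). In IP only Malat1 passed, lower by 2.03 times (log2 fold -1.02 ± 0.33, adjusted p 0.0195), where 33.5% of 15734 genes were called lower and 58.7% in all. All of these comparisons coincide with the library set, from which treatment cannot be told apart.

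For every RNA but Snhg11, the lowest AZD input library was above the highest tumor input library, as for 15% of genes. Among the 4 calls, Neat1 and Mirg were kept whichever library was left out. Meg3 was lost without tumor input replicate 2 (adjusted p 0.0637) or AZD input replicate 2 (0.0999) or 3 (0.0954), and Miat without AZD input replicate 2 (0.118) or 3 (0.0867). In a single fit of all 18 libraries only Neat1 was called. The glioma lineage markers summed to 6040 to 6805 CPM in tumor input and 2843 to 4074 CPM in AZD input, and the excitatory neuron markers to 1427 to 2850 and 2094 to 2776 CPM; their part was not tested. In IP, all 10 glioma lineage and all 10 astrocyte markers were lower with AZD (medians -3.24 and -2.08), their sums going from 4832 to 5255 and 4092 to 5561 CPM in tumor IP to 506.8 to 695.9 and 1806 to 2365 CPM in AZD IP, and 12 of 14 excitatory neuron markers were higher (median 1.06); their part in the lower Malat1 level was not tested. The Malat1 call was lost without AZD IP replicate 1 (-0.79, adjusted p 0.0676) or 2 (-0.99, 0.0612). The other 7 RNAs differed in IP by between -0.75 (Snhg11) and 0.19 (Mirg), with standard errors of 0.16 to 0.59 and adjusted p from 0.294 to 0.857.

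Against control, AZD input had more Neat1 (1.28 ± 0.29, adjusted p 0.00723) and Gas5 (0.78 ± 0.14, 0.00242) and less Mirg (-0.68 ± 0.16, 0.00833), where 36.8% of genes were called, 20.7% higher and 16% lower. The Mirg call was lost in a single fit of all libraries (-0.69, adjusted p 0.102). Meg3 (-0.29 ± 0.28), Rian (-0.40 ± 0.19), Miat (-0.35 ± 0.25) and Snhg11 (-0.78 ± 0.30) did not pass, with adjusted p of 0.428, 0.116, 0.29 and 0.0622. In IP, Gas5 rose by 0.89 ± 0.19 (adjusted p 0.00487), where 16% of genes were called higher and 33.3% in all; the other 7 did not pass. Without control IP replicate 1, Malat1 (-0.84, adjusted p 0.0446), Meg3 (-1.76, 0.0167), Miat (-1.33, 0.0319) and Snhg11 (-1.62, 0.0249) were called lower in AZD IP than in control IP. Without AZD IP replicate 3, Meg3 (-1.92, 0.0467) and Snhg11 (-1.86, 0.0474) were. With a library left out of this comparison, 3429 to 4735 genes were called in either direction, against 5246 with all libraries. The share called lower in those fits was not taken. Of the 11 RNAs tested on the list of snoRNA hosts, which also holds Rpph1 and Nop56, 7 rose in AZD input and 6 in AZD IP relative to control (medians 0.77 and 0.71). The comparisons of AZD with tumor and with control share the AZD libraries, so their values stand side by side and are not independent.

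**Figure D3:**
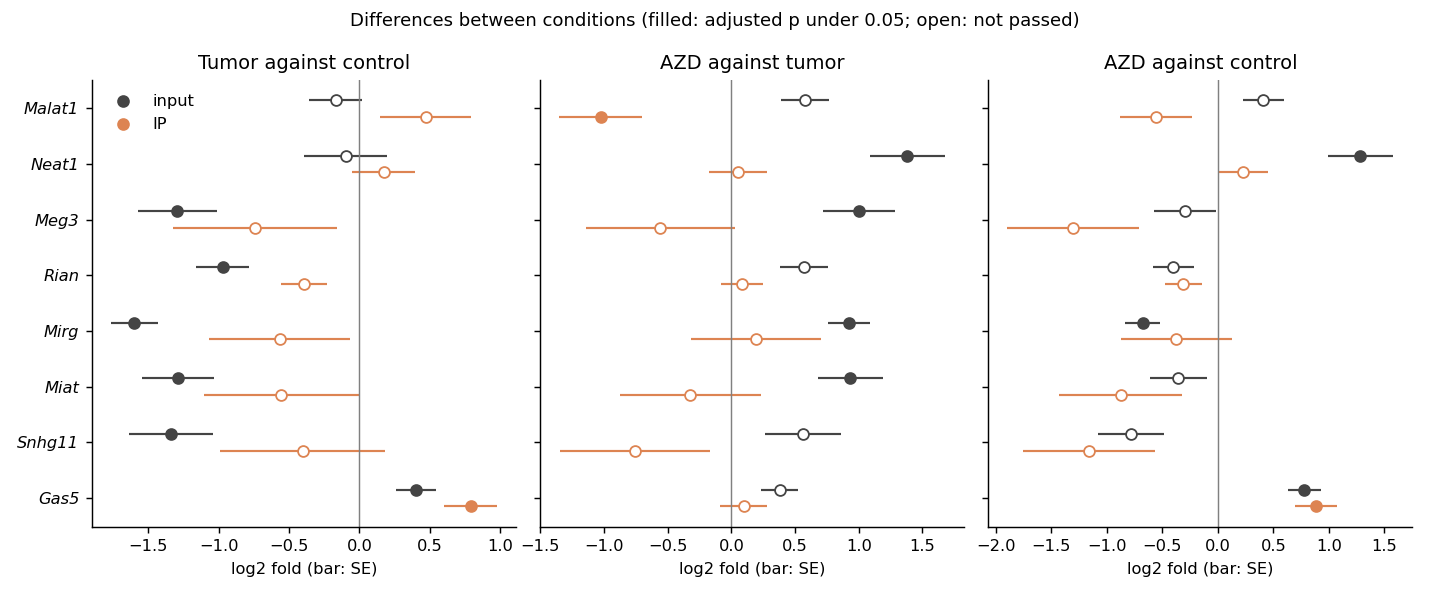
log2 fold with its standard error for each RNA between conditions, in input (dark) and IP (orange); filled points had an adjusted p under 0.05. In tumor against control, Meg3, Rian, Mirg, Miat and Snhg11 lie between -1.60 and -0.97 in input, and Gas5 lies above 0 in both fractions.

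The distance between IP and input was compared between conditions as a contrast. From control to tumor it did not change for any of the 8 by the test, with differences of 0.23 (Neat1) to 1.01 (Mirg) and standard errors of 0.25 to 0.74; 11 of 16016 genes (0.0687%) were called, and 67 (0.418%) with the replicate block, again with 0 of the 8. Without the block the smallest unadjusted p of the 8 was 0.0621 (Rian). With it, unadjusted p ran from 0.000253 for Rian (0.57 ± 0.13, adjusted p 0.0562) to 0.0343 for Meg3 and 0.314 for Neat1 (adjusted p 0.84). The differences were toward a smaller distance in tumor mice. The share of all genes with such unadjusted p was not taken, so these values are not a result for the 8 as a group. From tumor to AZD the distance widened for Malat1 (-1.54 ± 0.40, adjusted p 0.00829) and Neat1 (-1.27 ± 0.41, 0.0255), where 20.8% of genes were called lower and 33.1% in all. With the replicate block, Meg3 (-1.70 ± 0.38, adjusted p 0.001), Rian (-0.46 ± 0.13, 0.00572), Miat (-1.30 ± 0.41, 0.0115) and Snhg11 (-1.51 ± 0.40, 0.00394) were called as well, where 50.1% of genes were. Mirg (-0.62, 0.242) and Gas5 (-0.22, 0.239) did not pass in that fit. The Neat1 call was lost without tumor input replicate 2 (adjusted p 0.0589), AZD input replicate 1 (0.0853) or AZD IP replicate 2 (0.0681). Meg3 also passed in the fit without the block when AZD IP replicate 3 was left out (-2.09, adjusted p 0.0364). In the same contrast all 10 astrocyte, all 10 glioma lineage and all 10 endothelial and pericyte markers were called lower (medians -2.19, -1.95 and -2.07), as were 9 of 10 oligodendrocyte and 9 of 10 inhibitory neuron markers (medians -2.12 and -1.77), while 7 of 14 excitatory neuron markers were called higher (median 0.85). Their part in the widened distances was not tested. This contrast spans all 3 library sets.

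Meg3, Miat and Snhg11, genes on 3 different chromosomes, had nearly the same profile over the 18 libraries. Pearson's r of log2 CPM was 0.987 between Meg3 and Snhg11, 0.986 between Meg3 and Miat and 0.981 between Miat and Snhg11 (Spearman's rho 0.979, 0.971 and 0.977). Nearest genes were sought among 9996 genes with a mean of at least 10 CPM. Predicted genes with a Gm number or a Rik ending were left out, as were symbols marking pseudogenes or related sequences. Within this set Snhg11 and Miat were the nearest to Meg3, and Meg3 was the nearest to each of them. Cep70, a centrosome protein gene, came next for all (r 0.956 to 0.968). Whether a gene left out lies nearer was not tested. After each group's mean was taken out, r was 0.993, 0.971 and 0.978, so the shared profile included the replicate differences within groups, such as the low control IP replicate 1. The libraries share group, depth and library set, and these values are a description.

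Counts of Snhg11 per 1000 counts of Meg3 were 763 ± 66 in control input, 568 ± 29 in control IP, 730 ± 48 in tumor input, 723 ± 46 in tumor IP, 542 ± 32 in AZD input and 610.5 ± 35.2 in AZD IP (SD, n = 3). Counts of Miat per 1000 of Meg3 lay between group means of 212 and 304. Rian, although it follows Meg3 on the same strand, did not keep a fixed ratio: per 1000 counts of Meg3 it had 1145, 239 and 354 counts in control IP replicates 1 to 3 and 1182, 848 and 507 in those of AZD IP, against 281.5 to 393 in control input. The high ratios were in the libraries with low Meg3. Mirg per 1000 counts of Rian was 39.5 ± 4.8 in control input, 25.7 ± 2.0 in tumor input and 32.7 ± 5.9 in AZD input, and 9.4 ± 4.6, 8.4 ± 1.0 and 8.8 ± 3.0 in the matching IP groups, so no IP library reached the lowest input library. Neat1 per 1000 counts of Malat1 was 2.80 ± 0.33 in control input and 2.94 ± 0.23 in tumor input but ranged from 3.27 to 7.57 in AZD input.

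**Figure D4:**
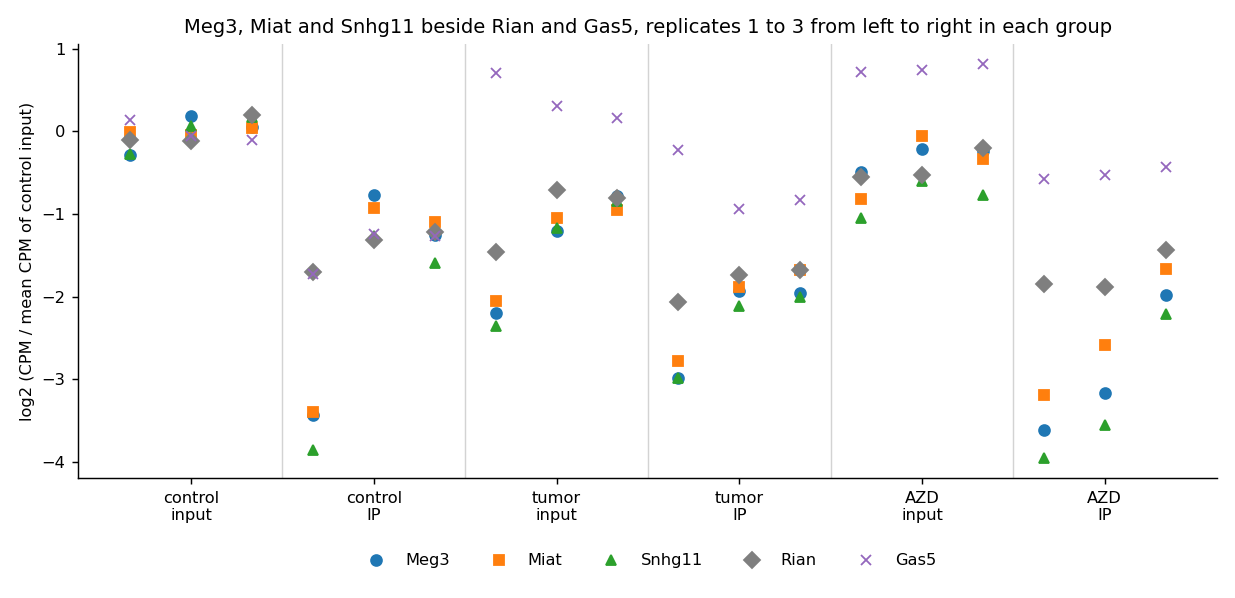
log2 of the level of Meg3, Miat, Snhg11, Rian and Gas5 in each library over the mean of control input, with replicates 1 to 3 from left to right in each group. Meg3, Miat and Snhg11 move together, including the drop in control IP replicate 1, whereas Rian drops less there and Gas5 is above its control level in tumor and AZD input.

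The other RNAs had other nearest genes within the same restricted set. For Malat1 these were Trim39, D4Wsu53e and Rnpc3, a component of the minor spliceosome (r 0.955, 0.954 and 0.950). For Neat1 they were the splicing regulator Srsf11, Safb2 and the nuclear poly(A)-binding protein gene Pabpn1 (r 0.909, 0.902 and 0.901), for Rian Ssh3, Rgs11 and Lrrc45 (0.965, 0.963 and 0.957) and for Mirg Zgpat, Rgs11 and Lrrc45 (0.978, 0.978 and 0.973). Gas5 was nearest to another snoRNA host, Snhg12 (0.959), followed by Hdac10 and Adamts10. Rian and Mirg had an r of 0.962 with each other and 0.909 and 0.904 with Meg3, whereas Gas5 and Meg3 had 0.499.

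Small RNA genes inside the hosts had few counts. The 10 small RNA genes counted inside Rian summed to 8.40 to 30.7 CPM (unscaled) in control and tumor input and to 1.46 to 8.40 in control and tumor IP. The 9 inside Mirg summed to 2.39 to 12.1 and to 0.0878 to 1.43 CPM, with no library of the IP in the range of the input. Rtl1, which lies against Meg3, behaved otherwise: it had 7 to 36 counts in each control and tumor input library, 38 to 199 in each control and tumor IP library, 272 to 379 in each AZD input library and 35 to 126 in each AZD IP library. It was higher in IP than in input in control (log2 fold 2.08 ± 0.61, adjusted p 0.0184) and tumor mice (2.25 ± 0.39, 0.0233), where the fractions lie in different sets, and lower in IP in AZD mice (-2.42 ± 0.26, 0.000149), where they lie in the same set. Whether reads of Meg3 entered the Rtl1 count through counting without strand was not tested.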

How the data were processed

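RNA of brain samples was measured in 18 libraries. The authors deposited raw read counts, 1 row per gene symbol. Per the labels' protocols, RNA was purified with RNeasy Mini and sequenced from NEBNext Ultra Directional libraries. STAR, DESeq2 and the mm10 build are listed in the submitters' processing notes. Tool versions, the read counter, the gene annotation and whether strand was used are not given in the sources used. Members and gene lists were chosen with earlier results of these data known, so counts over lists are descriptions.

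Levels were CPM scaled by TMM over all libraries. Low genes were removed with filterByExpr. Tests were run in edgeR 4.0.16 (R 4.3.3) as quasi-likelihood F tests with Benjamini-Hochberg adjustment over all genes tested, at 0.05. IP and input were compared in a fit per condition, conditions in a fit per fraction, and IP minus input in a fit of all 18 libraries, 11 comparisons in all. A log2 fold is given with its standard error. The analysis code was tested on simulated data.

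All 8 members are named. Per comparison and other list, at most 4 genes (those of smallest adjusted p) and at most 2 not passing could be named, and for each member the 3 genes with the highest r. Same-number input and IP libraries deviated together from their group means over 16016 genes (correlations in AZD mice 0.227 to 0.470, in tumor mice 0.487 to 0.741, and in control mice 0.181 to 0.244, the labels giving only the number), so a fit with the number as a block is given where it changes a call. Alternatives were other scalings and filters, DESeq2 1.42.0, the block, a single fit and leaving out each library. Coordinates and start sequences were taken from RefSeq tables for GRCm38, which held 21571 of the symbols; Neat1 is named without a start sequence. Some items are not reported here.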

Additional observations from a re-analysis of the deposited data

Results flagged for a closer look

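The difference between IP and input was not the same in AZD and tumor mice for 3 of the genes described, by the test of the difference itself (edgeR quasi-likelihood test, adjusted over all genes), where 33.1% of genes were called. For Malat1 the log2 difference of differences was -1.545 ± 0.404 (adjusted p 0.00829). IP held 24.6% ± 11.2 of input with AZD and 72% ± 12.3 in tumor mice (SD, n = 3 pairs). For Neat1 it was -1.27 ± 0.41 (adjusted p 0.0255), a call lost without tumor input replicate 2 (0.0589), AZD input replicate 1 (0.0853) or AZD IP replicate 2 (0.0681). With the replicate block, Meg3, Rian, Miat and Snhg11 were called too, where 50.1% of genes were. For Rtl1, the gene opposite Meg3, it was -4.685 ± 0.770 (adjusted p 0.000284), as IP was below input with AZD and above it in tumor mice. The tumor fractions lie in different library sets and the AZD fractions in 1, so the condition and the library set cannot be told apart here.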

How the results depend on the processing

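Over 773 members' folds under other settings, 722 kept direction and side of the threshold, 9 lost the threshold, 39 passed it newly and 3 changed sign; over 624 with a library left out, 581, 15, 15 and 13 did. The sign changes with plain library totals were all of differences that did not pass, AZD against tumor in IP: Neat1 -0.0826, Rian -0.0423 and Gas5 -0.0463. With a library left out, values that did not pass spanned 0 in the same comparison for Neat1 (-0.0349 to 0.19), Rian (-0.0733 to 0.16), Mirg (-0.26 to 0.44) and Gas5 (-0.0337 to 0.35). They also did for tumor against control in IP (Neat1 -0.0594 to 0.44, Snhg11 -0.86 to 0.0376) and in input (Neat1 -0.31 to 0.0865), for AZD against control in IP (Neat1 -0.0062 to 0.50), and for Gas5 in IP minus input between AZD and tumor (-0.40 to 0.0268). Genes called in tumor IP against input numbered 776, 451 with a mean of at least 5 CPM, 1728 with DESeq2, 2225 in a single fit and 120 to 653 with a library left out. For IP minus input between tumor and control, 11 became 17 with plain totals, 40 with DESeq2 and 5 to 20 with a library left out. With a library left out, counts were 4173 to 5115 (control) and 7650 to 9302 (AZD) for IP against input, 5930 to 6959, 7936 to 9090 and 3429 to 4735 in IP (tumor against control, AZD against tumor, AZD against control), 5679 to 7461, 1359 to 2598 and 3737 to 4965 in input, and 4095 to 6459 for IP minus input between AZD and tumor. The cause was not tested.

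With the replicate block, genes called in tumor IP against input rose from 776 to 5433, in IP minus input from 11 to 67 (tumor against control) and from 5296 to 8025 (AZD against tumor), and the block removed no call of the 8 RNAs. Between conditions, libraries of the same number had correlations of -0.096 to 0.285, some as high as those of control input with IP. For AZD with tumor input they were 0.285, -0.073 and 0.271. The labels give only the number, so whether it relates libraries of different conditions is not known. Between conditions the block added Rian in tumor against control IP (-0.39) and Meg3 in AZD against control IP (-1.13). It also added Malat1 (0.59) and Rian (0.59) in AZD against tumor input, and Snhg11 in AZD against control input (-0.77). Depth limits Mirg in IP, with 12 to 83 counts a library.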
